A study of Mus musculus with 32 samples.

Results

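The transcripts of the nuclear-encoded mitochondrial respiratory chain were followed in mouse liver across diet, genotype and sex. Members were the rows of the count tables whose symbol begins with Nduf, Uqcr or Atp5, or with Cox and a digit from 4 to 8, together with Sdha, Sdhb, Sdhc, Sdhd and Cyc1. This rule used no measured value and took 93 of 41585 rows, while 7 pseudogene rows with -ps in the symbol were left out. There were 36 members in complex I, 4 in complex II, 9 in complex III, 18 in complex IV including Ndufa4, 15 in complex V, and 11 assembly factors or relatives of subunits that share the prefixes. The subunits encoded by mitochondrial DNA were not analysed here.

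The study compared WT mice with mice lacking Cyp2b9, Cyp2b10 and Cyp2b13 (Cyp2b-null), all labelled C57BL/6 (C57Bl/6J in the methods), on a normal diet (ND) or on a diet rich in fat and deficient in choline, with amino acids in place of protein (CDAHFD). This diet held 62% fat and 0.1% methionine, and it was given for 8 weeks from 10 weeks of age. Each combination of diet, genotype and sex had 4 libraries of whole liver, 8 groups and 32 libraries in all, with between 2906411 and 10166959 counts on genes per library. The WT mice were bought and the Cyp2b-null mice came from the laboratory's own CRISPR/Cas9 line, in which the deletion is not limited to the liver, so genotype and colony cannot be told apart. The labels do not say that each library is a separate mouse, so p-values measure the spread between these samples, which may be technical. The deletion was visible in females, in which Cyp2b9 had at least 106.7 CPM in every WT library and at most 1.92 CPM in every Cyp2b-null library. In ND-fed males Cyp2b10 told the genotypes apart, with 6.07 to 14.7 CPM in WT and 0.211 to 1.0005 CPM in Cyp2b-null libraries, and in CDAHFD-fed males Cyp2b9 did, with 13.8 to 69.0 CPM in WT and 0.410 to 0.625 CPM in Cyp2b-null libraries.

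The respiratory chain passes electrons from NADH (complex I) and succinate (complex II) through ubiquinone and complex III to complex IV, which reduces oxygen. Complexes I, III and IV pump protons across the inner mitochondrial membrane, and complex V, the ATP synthase, uses the gradient to make ATP. Hepatocytes are rich in mitochondria and burn fatty acids through this chain. Most subunits are nuclear genes whose promoters are known targets of the factors NRF1, GABP, YY1 and the estrogen-related receptors (ERR).

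Promoters are shown for 3 members whose values are described below and whose start regions carry such letters. Of the 93 members, 76 matched a RefSeq promoter window (GRCm38.p6) of 250 bases before to 50 after the start, and exact matches were sought on both strands. The NRF1 letters GCGCATGCG were found in 10 of the 76 windows (13.2%) and in 2.61% of the windows of 17492 coding genes. For YY1 (AAGATGGCG) there were 8 members (10.53%) against 2.14%, for GABP (CCGGAAGT) 5 members (6.58%) against 5.69%, and for ERR (TCAAGGTCA) 2 members (2.63%) against 0.377%. A match describes the letters and does not show binding. The lines give the 100 bases before the start, 5′ to 3′ on the minus strand, with the matched letters in capitals. For Atp5k (subunit e of complex V, chr5:108434400-108434499) the capitals are NRF1 matches on both strands that overlap. For Uqcr11 (the smallest subunit of complex III, chr10:80406822-80406921) and Atp5h (subunit d of the complex V stalk, chr11:115419920-115420019) they are GABP matches, and the NRF1 letters of Uqcr11 lie outside the bases shown.
Atp5k: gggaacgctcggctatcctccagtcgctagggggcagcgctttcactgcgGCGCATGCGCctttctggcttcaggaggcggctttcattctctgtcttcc
Uqcr11: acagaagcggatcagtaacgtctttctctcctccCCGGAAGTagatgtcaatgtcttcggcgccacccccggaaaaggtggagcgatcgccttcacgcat
Atp5h: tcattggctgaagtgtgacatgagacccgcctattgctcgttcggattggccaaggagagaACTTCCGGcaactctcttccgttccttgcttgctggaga

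The CDAHFD-fed Cyp2b-null female replicate 3 stood apart from the other libraries. Relative to ND-fed WT females, the members' median log2 level was 0.36 in this library and -0.26 to -0.32 in the other 3 of its group. Cytosolic ribosomal protein genes were at 0.71, 444 other genes with transcripts under 1000 nt at 0.61, and 1013 genes with transcripts of 5000 nt or more at -0.80. Across the other 31 libraries the short genes ranged from -0.42 to 0.30 and the long genes from -0.32 to 0.17. The members are short themselves, with a median transcript of 838 nt. This library and the CDAHFD-fed Cyp2b-null male replicate 4 are not in the heat maps of the study, which gives no reason. Female counts and the values that moved are therefore given with and without replicate 3 of the CDAHFD-fed Cyp2b-null females, called replicate 3 from here on.

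**Figure D1:**
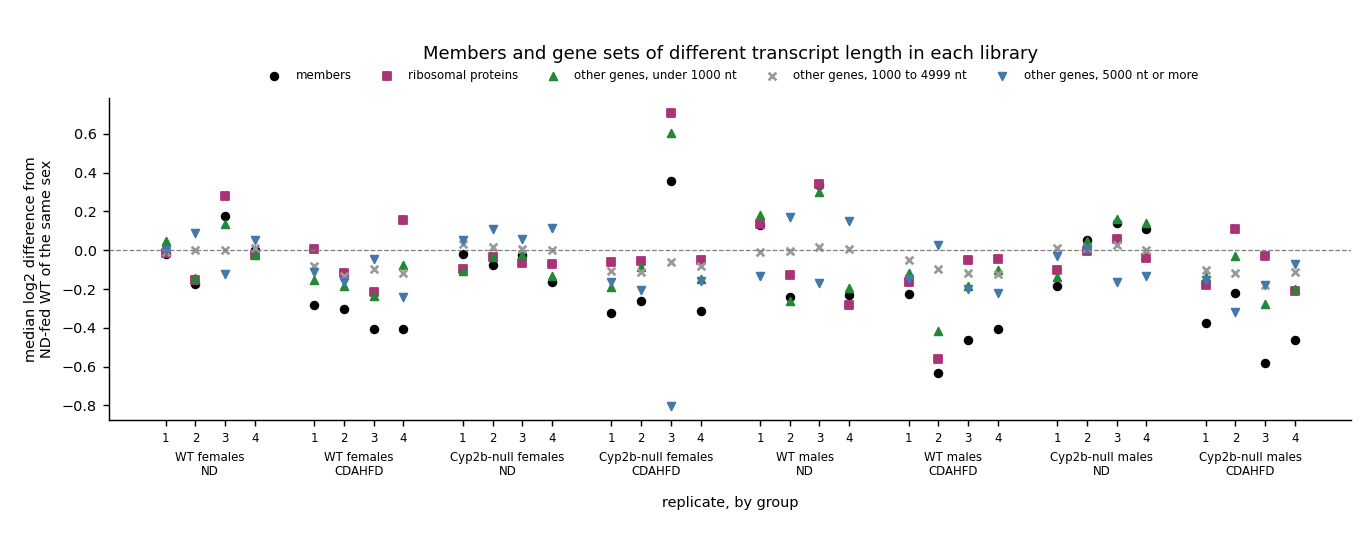
Median log2 difference from the mean of ND-fed WT libraries of the same sex (y axis) in each of the 32 libraries (x axis, replicates within groups), for the members, ribosomal protein genes and other genes split by transcript length. In CDAHFD-fed Cyp2b-null female replicate 3 the long genes sit at -0.80 and the short genes at 0.61, outside the range of all other libraries.

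The summed level of all members fell with CDAHFD in the libraries other than replicate 3. In CPM (counts scaled to a common library total with TMM factors), ND-fed WT females were at 12835, 11184, 14272 and 12718, and CDAHFD-fed WT females at 10723, 10177, 9945 and 9303. ND-fed Cyp2b-null females ranged from 11322 to 12690 CPM, and CDAHFD-fed Cyp2b-null females were at 10282, 10398 and 10299 CPM with replicate 3 at 15688 CPM. Males ranged from 10092 to 14347 CPM in ND-fed WT, 7565 to 9887 CPM in CDAHFD-fed WT, 10281 to 12731 CPM in ND-fed Cyp2b-null and 7770 to 9273 CPM in CDAHFD-fed Cyp2b-null mice. In both genotypes of males, as in WT females, every CDAHFD-fed library lay below every ND-fed library, and in Cyp2b-null females this held without replicate 3.

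**Figure D2:**
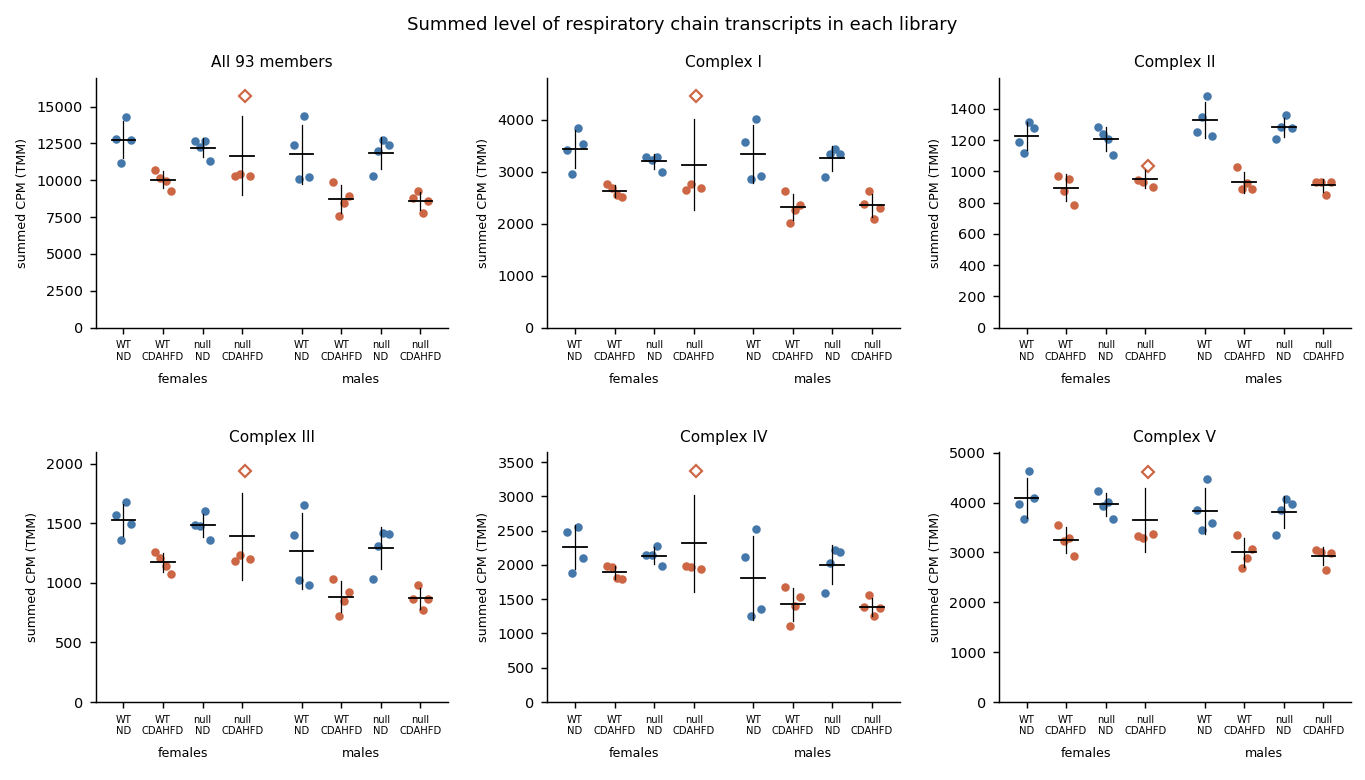
Summed CPM (y axis, from 0) of all 93 members and of each complex in each library, with the group mean (horizontal line) and SD (vertical line, n = 4). ND-fed libraries are blue and CDAHFD-fed libraries orange, and the open diamond is CDAHFD-fed Cyp2b-null female replicate 3, at 15688 CPM over all members.

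These levels are relative to the other genes of a library. As a share of all counts the members made up 1.16 ± 0.144% (SD, n = 4) in ND-fed and 1.16 ± 0.0591% in CDAHFD-fed WT females, and 1.002 ± 0.187% and 0.971 ± 0.111% in WT males. The TMM factors ran from 0.820 to 0.961 in the 16 ND-fed libraries and from 0.989 to 1.28 in the 16 CDAHFD-fed libraries. Without TMM the median diet effect over all genes moved to 0.32 in WT females, 0.28 in Cyp2b-null females, 0.37 in WT males and 0.36 in Cyp2b-null males (log2). The members' medians were then -0.02, 0.24, -0.07 and -0.08, so the lower levels described here are lower against the typical gene of the liver and not against the total of counts.

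In WT females 26 of 84 members tested fell with CDAHFD and 0 rose (edgeR's quasi-likelihood test, adjusted p under 0.05), where 10.2% of all genes tested fell and 13.9% rose. The members' median log2 change was -0.34 against 0.00 over all genes, and 2 rose and 1 fell when scaled by library size only. Leaving out replicate 3, which is in neither group compared here, gave 44 that fell with an unchanged median of -0.34 (of all genes, 13.9% fell and 15.8% rose). It enters this comparison through the shared fit, as in the estimate of the spread and the filter (13226 genes tested with it, 13251 without). In Cyp2b-null females 5 of 84 members fell and 3 rose, with a median of 0.01, where 13.9% of all genes fell and 16.9% rose. Without replicate 3, 17 fell and 0 rose, with a median of -0.21, against 12.6% of all genes that fell and 15.7% that rose. Library size scaling gave 17 that rose and 0 that fell with replicate 3, and 10 that rose and 1 that fell without it. The direction in Cyp2b-null females thus depended on the scaling and on 1 library. The count in WT females also rested on single libraries of its own groups, with 11 members called without ND-fed WT female replicate 3, 17 without replicate 1 and 15 without replicate 4 of that group, and 14, 14 and 12 without CDAHFD-fed WT female replicates 2, 3 and 4. In Cyp2b-null females 5, 4 and 4 members were called without ND-fed Cyp2b-null female replicates 1, 2 and 4.

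In WT males 45 of 82 members tested fell and 0 rose, with a median of -0.45, where 15% of all genes fell and 18% rose. In Cyp2b-null males 47 of 82 fell and 0 rose, with a median of -0.45, where 17.1% of all genes fell and 20.3% rose. Library size scaling left 6 that fell and 2 that rose in WT males, and 3 that fell and 2 that rose in Cyp2b-null males. The count in WT males was 28 without ND-fed WT male replicate 3 and 29 without CDAHFD-fed WT male replicate 2, and the count in Cyp2b-null males was 31 without CDAHFD-fed Cyp2b-null male replicate 3. Of the 45 members that fell in WT males, 32 (71.1%) also fell in Cyp2b-null males, where they were 68.1% of the calls. Without replicate 3, 10 members fell in the diet effect of both genotypes and both sexes. They were Ndufa6, Ndufb5, Ndufb9 and Ndufb11 of complex I, Sdha and Sdhd of complex II, Uqcrc2 of complex III, and Atp5c1, Atp5h and Atp5o of complex V. The overlap between diet effects over all genes was not counted, so these overlaps are not taken as particular to the members.

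Markers of cell types moved with the same contrast. Over all genes 13.9% to 20.3% rose and 10.2% to 17.1% fell in these diet effects. Of 9 hepatocyte markers, 7 fell in WT females, 8 in Cyp2b-null females, 8 in WT males and 6 in Cyp2b-null males, with medians from -0.75 to -0.63. Their summed level ranged over 138320 to 202540 CPM in ND-fed and 83493 to 109290 CPM in CDAHFD-fed WT females, and over 144300 to 179350 CPM in ND-fed and 79534 to 121550 CPM in CDAHFD-fed Cyp2b-null females. In males it ranged over 135190 to 148920 CPM in ND-fed and 67835 to 115650 CPM in CDAHFD-fed WT mice, and over 118580 to 133690 CPM in ND-fed and 64106 to 97855 CPM in CDAHFD-fed Cyp2b-null mice. Of 7 macrophage markers tested, 6 rose in each diet effect, and 5 in Cyp2b-null females without replicate 3. Their summed level ranged over 276 to 418 CPM in ND-fed and 821 to 1132 CPM in CDAHFD-fed WT females, and over 261 to 395 CPM in ND-fed and 858 to 1344 CPM in CDAHFD-fed Cyp2b-null females. In males the ranges were 124 to 229 CPM in ND-fed and 750.0 to 1617 CPM in CDAHFD-fed WT mice, and 126 to 168 CPM in ND-fed and 1079 to 2005 CPM in CDAHFD-fed Cyp2b-null mice. Trem2, a macrophage marker, was at 0 in all libraries. Clec4f, another of them, passed in no diet effect with all libraries (-0.53 in WT females, -0.10 in Cyp2b-null females, 0.36 in WT males and 0.29 in Cyp2b-null males). Without replicate 3 Clec4f fell in WT females (-0.53 ± 0.19, adjusted p = 0.0450). Of 7 stellate cell and fibroblast markers 5 or 6 rose in each diet effect. Endothelial markers moved in both directions, with Kdr lower in WT females (-1.02) and Lyve1 higher in Cyp2b-null males (1.595). The part of these cell types in the lower member levels was not tested, and in whole liver fewer cells of a type and less RNA per cell cannot be told apart.

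**Figure D3:**
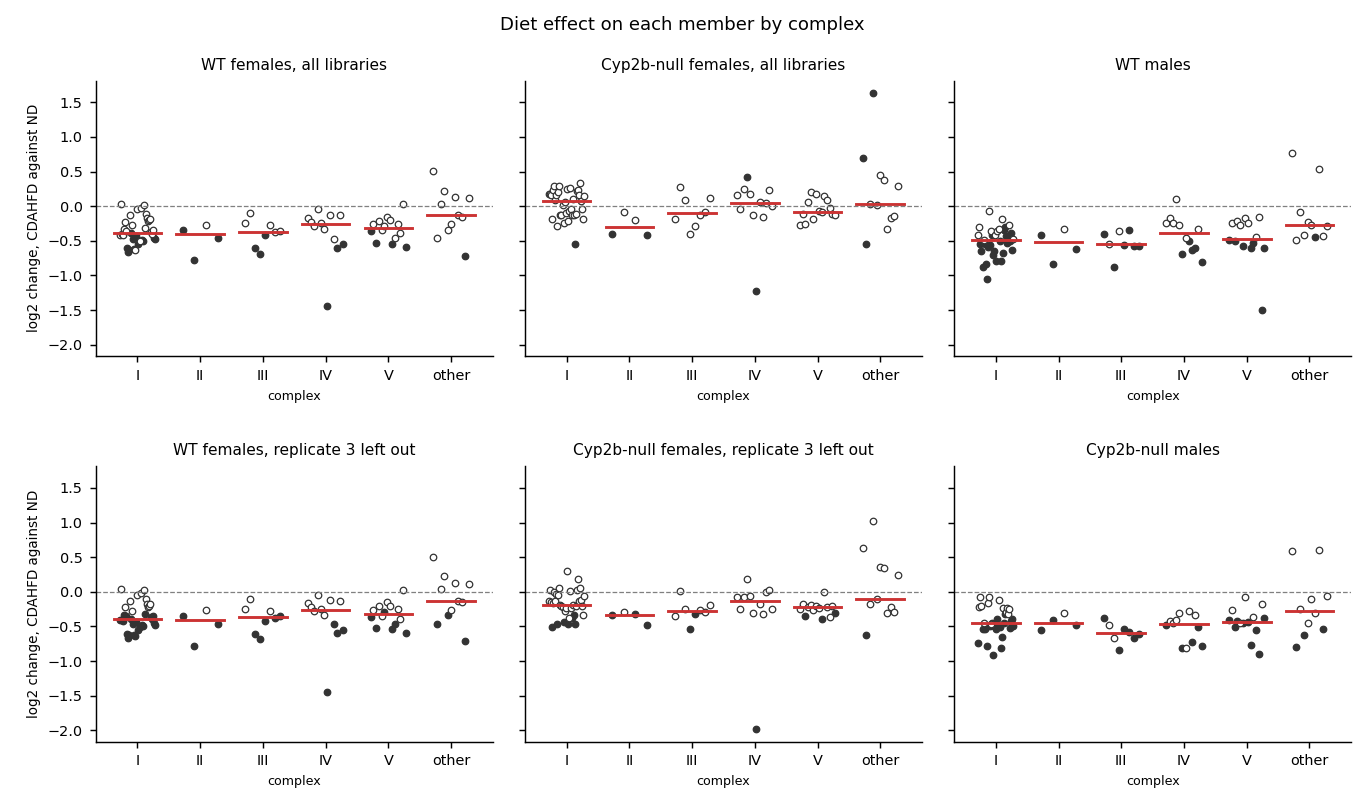
Log2 change with CDAHFD (y axis) of each member tested, by complex (x axis; "other" are assembly factors and relatives). Filled points passed the test at an adjusted p under 0.05, open points did not, and red lines are medians. In Cyp2b-null females the medians of complexes I and IV lie at 0.08 and 0.05 with all libraries and at -0.19 and -0.13 without replicate 3.

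Complex I, the NADH dehydrogenase, had 35 members tested in females and 34 in males. The number that fell was 12 in WT females (median -0.39), 1 in Cyp2b-null females (0.08), 23 in WT males (-0.49) and 21 in Cyp2b-null males (-0.45), and 0 rose. Without replicate 3 the counts in females became 23 in WT and 7 in Cyp2b-null mice, with a median of -0.19 in the latter. Of all genes, 10.2% fell in WT females, 13.9% in Cyp2b-null females, 15% in WT males and 17.1% in Cyp2b-null males. Without replicate 3 these shares were 13.9% in WT and 12.6% in Cyp2b-null females. The counts of core subunits are to be read against the same shares. Of the 6 core subunits tested, which carry the flavin and the iron-sulfur clusters, 5 fell in each genotype of males and 1 in each genotype of females, and without replicate 3 the number in WT females was 4.

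Ndufa6, an accessory subunit (chr15:82350139-82354291, GRCm38.p6), showed the largest fall of complex I in WT mice of both sexes. It was at 168, 184, 239 and 195 CPM in ND-fed and 127, 127, 116 and 116 CPM in CDAHFD-fed WT females. In WT males it was at 202, 165, 226 and 171 CPM on ND and 96.7, 71.4, 92.9 and 107 CPM on CDAHFD. The diets did not overlap in either sex, and the log2 change was -0.67 ± 0.15 (adjusted p = 0.00178) in WT females and -1.05 ± 0.14 (adjusted p = 9.34e-06) in WT males (± SE of the fit throughout). In Cyp2b-null females it was at 176, 171, 176 and 159.9 CPM on ND and 118, 131 and 113 CPM on CDAHFD, with replicate 3 at 186 CPM. Replicate 3 lay above all ND-fed libraries there and the other 3 below them, and the change was -0.29 ± 0.15 (adjusted p = 0.134) with it and -0.46 ± 0.12 (adjusted p = 0.00651) without it. In Cyp2b-null males it was at 161, 150.1, 174 and 185 CPM on ND and 97.2, 121, 82.9 and 85.7 CPM on CDAHFD, a change of -0.79 ± 0.14 (adjusted p = 0.000179).

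Ndufb11, an X-linked accessory subunit of the membrane arm, had the largest fall of complex I in Cyp2b-null males. It was at 131, 185, 171 and 174 CPM on ND and 84.8, 97.1, 78.1 and 89.8 CPM on CDAHFD in these mice. These groups did not overlap, and the change was -0.91 ± 0.16 (adjusted p = 9.44e-05). Its gene overlaps Rbm10, and the counting is not stated to use strand.

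Ndufs1, the largest core subunit, was the single complex I member that fell in Cyp2b-null females with all libraries. ND-fed Cyp2b-null females had 165, 141, 142 and 132 CPM and CDAHFD-fed Cyp2b-null females 94.8, 105, 83.5 and 106 CPM. All 4 CDAHFD-fed libraries were below the ND-fed ones, replicate 3 lowest, and the change was -0.54 ± 0.13 (adjusted p = 0.00283) with and -0.47 ± 0.12 (adjusted p = 0.00594) without replicate 3. In WT females Ndufs1 did not pass the test (-0.11 ± 0.13, adjusted p = 0.605). Its transcript of 2661 nt is long for a member, and the gene overlaps Ino80dos, so reads of the pair could not be told apart without strand.

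Complex II, succinate dehydrogenase, has 4 subunits and no mitochondrially encoded part. Sdha (the flavoprotein) and Sdhd (a membrane anchor) passed the test in all 4 diet effects with and without replicate 3. Sdhd was at 202, 191, 225 and 216 CPM in ND-fed and 167, 144, 150.1 and 134 CPM in CDAHFD-fed WT females. In Cyp2b-null females it was at 231, 197, 235 and 198 CPM on ND and 159, 152, 178 and 142 CPM on CDAHFD, the latter with replicate 3 highest at 178 CPM. The diets did not overlap in either genotype, and the changes were -0.46 ± 0.12 (adjusted p = 0.00618) and -0.42 ± 0.12 (adjusted p = 0.0100). In males Sdhd changed by -0.62 ± 0.13 (adjusted p = 0.000697) in WT and -0.49 ± 0.13 (adjusted p = 0.00433) in Cyp2b-null mice. Sdha, whose transcript of 2900 nt is long for a member, was at 643, 668, 586 and 578 CPM in ND-fed and 484, 468, 410.1 and 482 CPM in CDAHFD-fed Cyp2b-null females. Here replicate 3 was the lowest library, and the diets did not overlap. The log2 changes of Sdha were -0.35 and -0.40 in WT and Cyp2b-null females and -0.41 and -0.56 in WT and Cyp2b-null males. In WT females the adjusted p of Sdha was 0.0385, and Sdha no longer passed in 10 of 27 alternatives, including those without any of ND-fed WT replicates 2, 3 and 4 and CDAHFD-fed WT replicates 2 and 4, the fit to only the groups compared and no low-count filter. In Cyp2b-null females it no longer passed without ND-fed Cyp2b-null replicate 2.

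Sdhb, the iron-sulfur subunit, fell in 3 of the 4 diet effects. It was at 229, 307, 303 and 270.1 CPM in ND-fed and 175, 136, 161 and 148 CPM in CDAHFD-fed WT males, and at 197, 229.8, 251 and 231 and 189, 190.1, 153 and 154 CPM in Cyp2b-null males. The diets were apart in both, and the changes were -0.83 ± 0.13 (adjusted p = 2.73e-05) and -0.40 ± 0.12 (adjusted p = 0.0143), the latter no longer passing without ND-fed or CDAHFD-fed Cyp2b-null male replicate 3. In WT females the change was -0.78 ± 0.18 (adjusted p = 0.00341), and in Cyp2b-null females Sdhb did not pass the test with replicate 3 (-0.09 ± 0.18, adjusted p = 0.744) or without it (-0.29 ± 0.16, adjusted p = 0.199). Sdhc, the other membrane anchor, passed only in Cyp2b-null females without replicate 3 (-0.33 ± 0.11, adjusted p = 0.0329), with values of -0.27 to -0.32 in WT mice and -0.31 in Cyp2b-null males.

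Complex III, the cytochrome bc1 complex, had 8 of 9 members tested. In males 6 fell in each genotype (medians -0.55 in WT and -0.60 in Cyp2b-null mice). In females 3 fell in WT (-0.37) and 0 in Cyp2b-null mice (-0.10), of which 2 had an unadjusted p under 0.05, and without replicate 3 the counts were 5 and 2. Of all genes, 15% fell in WT males, 17.1% in Cyp2b-null males, 10.2% in WT females and 13.9% in Cyp2b-null females. Without replicate 3 it was 13.9% in WT and 12.6% in Cyp2b-null females. Uqcrb, a small ubiquinone-binding subunit, was at 85.1, 94.9, 122 and 76.5 CPM in ND-fed and 58.4, 58.8, 57.0 and 56.2 CPM in CDAHFD-fed WT females. These groups did not overlap (-0.68 ± 0.16, adjusted p = 0.00252). In Cyp2b-null males it was at 37.1, 62.6, 73.3 and 86.6 CPM on ND and 40.2, 36.6, 30.4 and 36.7 CPM on CDAHFD (-0.84 ± 0.23, adjusted p = 0.00718), where the lowest ND-fed library lay inside the CDAHFD range.

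Uqcr11, whose upstream sequence is printed above, spread widely in ND-fed WT males, at 114, 46.3, 141 and 36.3 CPM. The CDAHFD-fed WT males had 58.4, 30.4, 49.2 and 46.7 CPM, so that the 2 lower ND-fed libraries overlapped them, and the change was -0.87 ± 0.31 (adjusted p = 0.0348). Uqcr11 no longer passed there in 9 of 25 alternatives, among them DESeq2 and leaving out any of ND-fed WT male replicates 1 and 3 and CDAHFD-fed WT male replicates 2, 3 and 4. In WT females it was at 117, 86.8, 127 and 101 CPM on ND and 85.1, 61.9, 68.4 and 64.7 CPM on CDAHFD (-0.60 ± 0.20, adjusted p = 0.0349). In CDAHFD-fed Cyp2b-null females replicate 3 had 159.6 CPM and the other 3 libraries 70.4, 79.8 and 72.8 CPM, and Uqcr11 did not pass with it (0.10) or without it (-0.25).

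Complex IV, cytochrome c oxidase, had 12 of 18 members tested. The number that fell was 3 in WT females (median -0.26), 1 in Cyp2b-null females (0.05), and 5 in males of each genotype (-0.39 in WT and -0.46 in Cyp2b-null). Without replicate 3 the counts were 4 in WT females (-0.26) and 1 in Cyp2b-null females (-0.13). Of all genes, 10.2% fell in WT females, 13.9% in Cyp2b-null females, 15% in WT males and 17.1% in Cyp2b-null males. Without replicate 3 it was 13.9% in WT and 12.6% in Cyp2b-null females. Ndufa4, named for complex I but now assigned to complex IV, was at 329.8, 231, 308 and 248 CPM in ND-fed and 194, 197, 178 and 179.8 CPM in CDAHFD-fed WT females. The WT males had 316, 257, 425 and 223 CPM on ND and 206, 148, 175 and 170.4 CPM on CDAHFD, and the Cyp2b-null males 258, 302, 345 and 327 and 180.2, 219, 144 and 173 CPM. In each of these comparisons all CDAHFD-fed libraries were below all ND-fed ones. The changes were -0.55 ± 0.18 (adjusted p = 0.0268) in WT females, -0.80 ± 0.17 (adjusted p = 0.00107) in WT males and -0.78 ± 0.17 (adjusted p = 0.00115) in Cyp2b-null males. In WT females Ndufa4 no longer passed on leaving out any of ND-fed WT replicates 1 and 3 and CDAHFD-fed WT replicates 3 and 4. CDAHFD-fed Cyp2b-null females had 224, 211 and 191 CPM with replicate 3 at 383 CPM, and ND-fed Cyp2b-null females 243, 245, 297 and 234 CPM. The change there was 0.01 ± 0.18 (adjusted p = 0.979) with replicate 3 and -0.26 ± 0.13 (adjusted p = 0.158) without it.

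Cox6a1, the widely expressed form of subunit 6a, was the complex IV member that rose in Cyp2b-null females with all libraries. The ND-fed libraries had 385, 395, 353 and 358 CPM and the CDAHFD-fed libraries 394, 411 and 441 CPM with replicate 3 at 729 CPM. The 3 lower CDAHFD-fed libraries reached into or just above the ND-fed range. The change was 0.43 ± 0.16 (adjusted p = 0.0483), and without replicate 3 it no longer passed (0.19 ± 0.12, adjusted p = 0.235). Cox6a1 also lost its call on leaving out any of 12 libraries in turn, counting replicate 3, and in 20 of 27 alternatives in all. Of the other widely expressed forms, Cox4i1 and Cox8a fell in Cyp2b-null males (-0.48 ± 0.18, adjusted p = 0.0357 and -0.52 ± 0.20, adjusted p = 0.0487), Cox7a2 in WT males (-0.51 ± 0.18, adjusted p = 0.0390) and Cox7b in males of both genotypes (-0.63 in WT and -0.72 in Cyp2b-null). Several of these calls were lost under alternatives. Cox8a no longer passed in 14 of 25 alternatives, including RLE scaling and leaving out any of 10 libraries in turn, of which 6 were Cyp2b-null (ND-fed replicates 2, 3 and 4 and CDAHFD-fed replicates 1, 3 and 4) and 4 WT (ND-fed replicate 1 and CDAHFD-fed replicates 1, 3 and 4). Cox4i1 no longer passed in 7, among them leaving out any of ND-fed Cyp2b-null male replicates 2, 3 and 4 and CDAHFD-fed Cyp2b-null male replicates 3 and 4. In WT males Cox7a2 and Cox7b each lost the call in 6 alternatives, among them leaving out ND-fed WT replicate 1 or 3 or CDAHFD-fed WT replicate 2, and for Cox7b also CDAHFD-fed WT replicate 3. Cox6b1 passed in none of the diet effects, with values from -0.31 to 0.17. Cox6c, a subunit with a single form, had the largest fall of the complex in Cyp2b-null males, from 129.9, 170.2, 200.2 and 193 CPM on ND to 84.2, 112, 94.6 and 103 CPM on CDAHFD with no overlap (-0.81 ± 0.23, adjusted p = 0.00873).

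**Figure D4:**
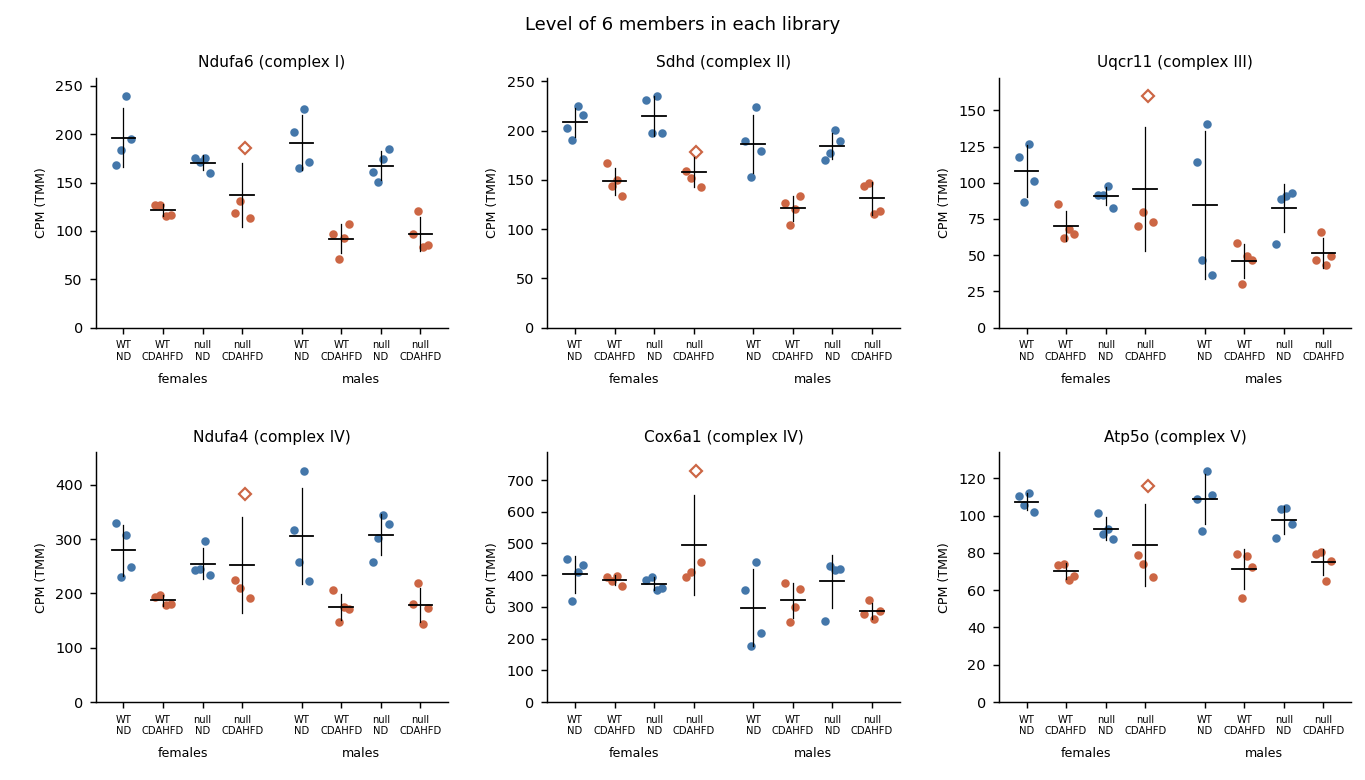
CPM (y axis, from 0) of 6 members in each library by group, with group mean and SD (n = 4); ND-fed libraries are blue, CDAHFD-fed libraries orange, and the open diamond is CDAHFD-fed Cyp2b-null female replicate 3. Sdhd in that library lies below the ND-fed Cyp2b-null females, while Cox6a1 (729 CPM) and Uqcr11 (159.6 CPM) lie above every other library.

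Tissue-restricted forms of complex IV were near the floor of detection, which was 0.250 to 1.15 CPM for 3 counts in a library (counting error only). Cox7b2 and Cox8c were listed at 0 in all 32 libraries, and Cox4i2, Cox6a2, Cox6b2 and Cox8b had at most 5, 7, 14 and 3 counts in any library. Markers of muscle and brown adipose tissue, where several of these forms are known, summed to at most 2.30 CPM in any library. Cox7a1, the heart and muscle form of subunit 7a, was tested with at most 25 counts in a library. It was at 4.54, 4.17, 1.92 and 3.18 CPM in ND-fed Cyp2b-null females and 0.503, 0.952 and 0.965 CPM in CDAHFD-fed ones, with replicate 3 at 3.39 CPM. The fitted change was -1.23 ± 0.46 (adjusted p = 0.0455) with replicate 3 and -1.98 ± 0.44 (adjusted p = 0.00224) without it, and -1.44 ± 0.49 (adjusted p = 0.0350) in WT females. Cox7a1 no longer passed in 14 of 27 alternatives in Cyp2b-null females, including leaving out any of 11 single libraries other than replicate 3, and in 7 of 27 in WT females, including leaving out ND-fed WT replicate 1 or 4 or CDAHFD-fed WT replicate 2, 3 or 4. In males it did not pass (-0.46 in WT and -0.81 in Cyp2b-null).

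Complex V, the ATP synthase, had 14 of 15 members tested. The number that fell was 4 in WT females (median -0.32), 0 in Cyp2b-null females (-0.08, 2 at an unadjusted p under 0.05), 7 in WT males (-0.47) and 9 in Cyp2b-null males (-0.43), and without replicate 3 it was 6 in WT and 3 in Cyp2b-null females. The shares of all genes that fell were 10.2%, 13.9%, 15% and 17.1% in the same order. Without replicate 3 they were 13.9% in WT and 12.6% in Cyp2b-null females. Atp5o, the stalk protein that holds the catalytic head, was at 111, 106, 112 and 102 CPM in ND-fed and 73.5, 74.1, 65.4 and 67.6 CPM in CDAHFD-fed WT females. The diets did not overlap (-0.59 ± 0.14, adjusted p = 0.00361). In Cyp2b-null females Atp5o changed by -0.12 ± 0.14 (adjusted p = 0.541) with replicate 3 (116 CPM, above all ND-fed libraries of its genotype) and by -0.31 ± 0.10 (adjusted p = 0.0300) without it. In males it changed by -0.60 ± 0.13 (adjusted p = 0.000813) in WT and -0.37 ± 0.13 (adjusted p = 0.0231) in Cyp2b-null mice.

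Atp5k, shown above with NRF1 letters before its start, had the largest fall of complex V in Cyp2b-null males. It was at 55.8, 91.8, 119 and 121 CPM on ND and 37.5, 60.0, 53.3 and 56.0 CPM on CDAHFD, where the lowest ND-fed library lay inside the CDAHFD range (-0.89 ± 0.28, adjusted p = 0.0146). Atp5k no longer passed without ND-fed replicate 4 or CDAHFD-fed replicate 1 of these males. Atp5h, shown with GABP letters, fell in both genotypes of males (-0.60 ± 0.16, adjusted p = 0.00671 in WT and -0.77 ± 0.16, adjusted p = 0.000775 in Cyp2b-null) and in WT females (-0.54 ± 0.19, adjusted p = 0.0462), and in Cyp2b-null females without replicate 3 (-0.40 ± 0.14, adjusted p = 0.0375). Atp5l, subunit g, fell in WT males alone among the 4 diet effects, from 3.31, 6.62, 5.08 and 4.81 CPM to 0.948, 1.46, 1.99 and 2.48 CPM (-1.495 ± 0.40, adjusted p = 0.00589). In Cyp2b-null males it was at 2.45, 2.51, 3.79 and 3.10 CPM on ND and 1.77, 4.998, 1.499 and 1.85 CPM on CDAHFD (-0.18 ± 0.39, adjusted p = 0.758), and the difference between the genotypes did not pass the test over all genes. Atp5k and Atp5l have pseudogene rows in the tables, with up to 62 counts in a library for Atp5k-ps2 and up to 7 for Atp5l-ps1, and how reads that fit both were counted is not stated, so their levels are uncertain.

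Levels per length were compared among members in ND-fed WT mice. Atp5b, the catalytic beta subunit, was highest at 747 CPM per kilobase in females and 753 in males. Cox6a1 followed at 705.5 CPM per kilobase in females and 521 in males, and Atp5g3, Cox4i1 and Ndufa4 filled the next places in both sexes in differing order, at 435 to 585 CPM per kilobase. The floor of the list was set by 12 members with fewer than 400 counts over all libraries. Ndufs3, a core subunit of complex I, was listed at 0 in all 32 libraries, and Uqcrc1, a core protein of complex III, had 0 to 10 counts per library. Both genes are used by every respiring cell and neither overlaps another RefSeq gene, so these rows are read as listed values and not as absent expression. Atp5g2, a form of the c ring subunit, had 1 to 15 counts, and Ndufb4 of complex I 2 to 21.

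The counts of the 11 assembly factors and relatives are set beside the share of all genes that fell. This was 10.2% in WT females, 13.9% in Cyp2b-null females, 15% in WT males and 17.1% in Cyp2b-null males. In WT females 1 of 11 fell (Ndufaf6, -0.72 ± 0.20, adjusted p = 0.0109) and in WT males 1 of 10 (Ndufaf4, -0.44 ± 0.16, adjusted p = 0.0377). In Cyp2b-null males 3 of 10 fell (Atp5sl, Ndufaf1 and Ndufaf6). Without replicate 3 these same genes made 3 of 11 in WT females, where 13.9% of all genes fell. In Cyp2b-null females, where 16.9% of all genes rose, Atp5s and Ndufa4l2 rose and Atp5sl fell with all libraries (0.70 ± 0.23, adjusted p = 0.0261 for Atp5s). Ndufa4l2, a paralog of Ndufa4 known for its induction by hypoxia, was at 0.302, 1.39, 1.92 and 0.335 CPM in ND-fed and 2.52, 1.43, 5.89 and 1.69 CPM in CDAHFD-fed Cyp2b-null females. These levels rest on few reads, with 1, 7, 5 and 2 counts on ND and 10, 9, 33 and 14 counts on CDAHFD. The change of Ndufa4l2 was 1.63 ± 0.59 (adjusted p = 0.0398) with replicate 3, the highest library at 5.89 CPM, and 1.01 ± 0.58 (adjusted p = 0.203) without it. It also no longer passed without ND-fed Cyp2b-null replicate 1 or 4 or CDAHFD-fed Cyp2b-null replicate 1. Atp5s likewise no longer passed (0.63 ± 0.24, adjusted p = 0.0547), and of the 3 changes Atp5sl alone held (-0.62 ± 0.17, adjusted p = 0.00964).

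An offset for transcript length and GC content, estimated per library from genes that are no members and added after the data were seen, was applied because the libraries differ along length. Under it 28 members fell and 1 rose in WT females (median -0.25, all genes that fell 11.9%), 16 fell and 1 rose in Cyp2b-null females (-0.14, 12.4%), 36 fell and 2 rose in WT males (-0.31, 13.4%), and 41 fell and 2 rose in Cyp2b-null males (-0.32, 14.8%). With replicate 3 kept, the median of Cyp2b-null females thus went from 0.01 to -0.14, and without replicate 3 it was -0.20 with 20 members that fell, against 11.2% of all genes.

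Genotype made no member pass the test on either diet in either sex. On ND 0 of 84 members were called in females (median -0.10, range -0.58 to 0.33, all genes called 0.0756%) and 0 of 82 in males (0.00, -0.76 to 0.51, 0.0371%). On CDAHFD 0 of 82 were called in males (0.00, -0.46 to 0.56, 0.0297%). DESeq2 likewise called 0 members in each, and at an unadjusted p under 0.05 edgeR had 1 member in ND-fed females (5.75% of all genes), 1 in ND-fed males (8.26%) and 0 in CDAHFD-fed males (3.62%). The smallest p-values belonged to Cox7c, a complex IV subunit, in ND-fed females (-0.49 ± 0.19, adjusted p = 0.793), to Sdhb in ND-fed males (-0.29 ± 0.12, adjusted p = 0.556) and to Ndufc2, an accessory subunit of complex I, in CDAHFD-fed males (0.27 ± 0.16, adjusted p = 0.99994).

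CDAHFD-fed females were the comparison in which replicate 3 entered directly. With it, 78 of 84 members were higher in Cyp2b-null than in WT mice, as were 48.9% of all genes, with a median of 0.24. At an unadjusted p under 0.05 there were 20 members (5.83% of all genes), but 0 passed the test in edgeR or DESeq2 (all genes called 0.0227%). Without it 53 of 84 were higher (50.5% of all genes), with a median of 0.04. There 1 member had an unadjusted p under 0.05 (2.88% of all genes) and 0 passed (all genes called 0.0226%). The length and GC offset gave a median of 0.07 with replicate 3 kept. The smallest p was that of Ndufaf2, a complex I assembly factor (0.60 ± 0.18, adjusted p = 0.826, and 0.50 ± 0.18, adjusted p = 0.99989 without replicate 3).

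**Figure D5:**
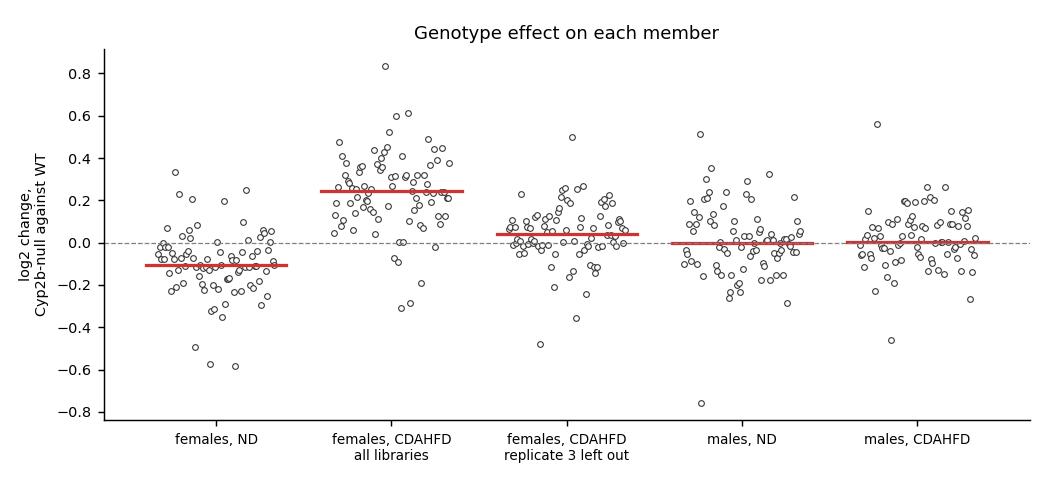
Log2 difference between Cyp2b-null and WT mice (y axis) of each member tested on each diet in each sex, with medians in red. None of the points passed the test. In CDAHFD-fed females the median lies at 0.24 with all libraries and at 0.04 without replicate 3.

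The diet effect was not shown to differ between genotypes for any member. The interaction called 0 of 84 members in females, with a median difference (Cyp2b-null minus WT) of 0.34 and 16 members at an unadjusted p under 0.05 (6.28% of all genes), and without replicate 3 the median was 0.15 with 8 members (4.52%). In males it called 0 of 82, with a median of 0.00 and 3 members at an unadjusted p under 0.05 (6.07% of all genes). DESeq2 called 0 in both sexes. The share of all genes that passed was 0% in females, 0% in females without replicate 3, and 0.00743% in males. The smallest p belonged to Ndufa5, an accessory subunit of complex I, in females (0.78 ± 0.26, adjusted p = 0.760, and 0.57 ± 0.22, adjusted p = 0.987 without replicate 3) and to Sdhb in males (0.43 ± 0.18, adjusted p = 0.717).

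Between the sexes 0 of 85 members differed in the diet effect of either genotype in the fit to all 8 groups. In WT mice the median difference (males minus females) was -0.06, with 1 member at an unadjusted p under 0.05 (10.3% of all genes) and 0.97% of all genes called. In Cyp2b-null mice it was -0.42 with 33 members at an unadjusted p under 0.05 (19.2% of all genes) and 3.4% of all genes called, and without replicate 3 it was -0.22 with 7 (15%), and 2.43% of all genes were called. DESeq2 called 0 members in each. Leaving out the low-count filter called 11 members in the comparison of Cyp2b-null mice, all with the larger fall in males, and 1 and 2 members were called on leaving out replicate 4 of the CDAHFD-fed Cyp2b-null females and replicate 2 of the CDAHFD-fed Cyp2b-null males, respectively. The smallest p belonged to Atp5l in WT mice (-1.497 ± 0.51, adjusted p = 0.190) and to Ndufa4 in Cyp2b-null mice (-0.77 ± 0.26, adjusted p = 0.0910). The genotype effect differed between the sexes for 0 of 85 members on ND (median 0.12, all genes called 0.00713%) and on CDAHFD (-0.26, 0.00713%), with 2 members each at an unadjusted p under 0.05 (4.61% and 3.13% of all genes) and 0 by DESeq2. Without replicate 3 the median on CDAHFD was -0.03, with 0 members called, 0 at an unadjusted p under 0.05 (2.67% of all genes) and 0% of all genes called. Those with the smallest p were Ndufa4l2 (2.02 ± 0.85, adjusted p = 0.9999) and Ndufs7, a core subunit of complex I (-0.52 ± 0.25, adjusted p = 0.99998, and -0.23 without replicate 3).

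Other lists of mitochondrial energy metabolism were counted in the same contrasts. Over all genes 13.9% to 20.3% rose and 10.2% to 17.1% fell, and the counts are given to be read against these shares, with nothing taken as particular to a list. Of 19 electron carriers, uncoupling proteins and ADP/ATP exchangers tested, 4 rose and 0 fell in WT females, 5 rose and 1 fell in Cyp2b-null females, 4 rose and 5 fell in WT males, and 4 rose and 4 fell in Cyp2b-null males. Without replicate 3 the counts were 6 and 1 in WT females and 5 and 2 in Cyp2b-null females. Ucp2, a mitochondrial carrier, rose most in all 4, by 2.04 ± 0.21 (adjusted p = 4.38e-07) in WT females and 2.86 ± 0.24 (adjusted p = 1.23e-08) in WT males, and it is known to be high in macrophages. Slc25a4, the muscle-type ADP/ATP translocase, rose by 0.86 ± 0.20 (adjusted p = 0.00300) in WT females and 2.07 ± 0.25 (adjusted p = 1.61e-06) in Cyp2b-null males. Its mean level in WT females was 14.8 CPM on CDAHFD and 8.41 CPM on ND. Slc25a5, another ADP/ATP translocase, was at 336 and 359 CPM there and passed in none of the 4 diet effects (-0.07 to 0.15). Atpif1, the inhibitor of complex V, rose by 1.44 ± 0.27 (adjusted p = 0.000298) in WT males. Of 39 assembly factors outside the symbol rule, 6 fell and 3 rose in WT females, 0 fell and 6 rose in Cyp2b-null females (1 fell and 2 rose without replicate 3, with the WT female counts as before), 6 fell in WT males and 8 in Cyp2b-null males. Surf1, needed to assemble complex IV, fell in WT females (-0.51 ± 0.14, adjusted p = 0.0121) and in males of both genotypes (-0.48 ± 0.13, adjusted p = 0.00500 in WT and -0.70 ± 0.12, adjusted p = 0.000134 in Cyp2b-null), and in Cyp2b-null females it passed without replicate 3 only (-0.43 ± 0.13, adjusted p = 0.0175).

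Among 17 regulators of mitochondrial biogenesis tested, 3 fell in WT females, 4 in Cyp2b-null females, 5 in WT males and 5 in Cyp2b-null males, while 1 rose in Cyp2b-null females and 1 in WT males, against the same shares of all genes. Without replicate 3 the number that fell was 5 in WT females, with Tfb2m and Yy1 added, and 4 in Cyp2b-null females. Esrrg, the estrogen-related receptor gamma, had the largest fall in each of the 4 diet effects, from -1.03 ± 0.38 (adjusted p = 0.0447) in WT males to -1.40 ± 0.32 (adjusted p = 0.00209) in Cyp2b-null females. Its level was low, with a mean of 2.06 CPM on CDAHFD and 4.05 CPM on ND in WT males. Esrra, the receptor alpha, was at 37.5 and 40.3 CPM there and passed in none of the 4 (-0.10 to 0.35). Ppargc1a, a coactivator of these receptors, fell in WT females (-0.74 ± 0.25, adjusted p = 0.0353). It did not pass in Cyp2b-null females (-0.67), and in males the values were above 0 without passing (0.44 in WT and 0.38 in Cyp2b-null). Gabpa, the DNA-binding part of GABP, fell in Cyp2b-null females and males (-0.55 ± 0.15, adjusted p = 0.00939 and -0.54 ± 0.10, adjusted p = 0.000330), and did not pass in WT females (-0.35) or WT males (-0.16). Of 13 Krebs cycle enzymes 2 fell in WT females, 1 in Cyp2b-null females, 4 in WT males (1 rose) and 3 in Cyp2b-null males (2 rose), and without replicate 3 it was 3 in WT and 2 in Cyp2b-null females. The list medians ran from -0.21 to -0.01, against -0.45 to 0.01 for the respiratory chain members in the same contrasts. Sucla2, a subunit of succinyl-CoA synthetase, fell in all 4, from -0.48 in WT males to -0.63 in Cyp2b-null males.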

How the data were processed

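Liver RNA of 32 mouse libraries was sequenced. The authors trimmed reads with Trimmomatic, aligned them to GRCm38.p6 with GSNAP and counted them on genes with Subread, and the deposited values are raw counts per gene, with no normalization. Tool versions and the settings for strand and for reads that map more than once are not given in the sources used here. Columns were mapped to groups by their titles, and 0 columns were unused.

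Counts were filtered with filterByExpr (smallest count 10, smallest total 15), scaled with TMM factors and tested with edgeR's quasi-likelihood test (edgeR 4.0.16, R 4.3.3) on the 4 groups of each sex, and on all 8 groups for differences between sexes. The Benjamini-Hochberg method adjusted p-values over every gene that passed the filter (13226 in females, 13460 in males, 14020 in both), with a threshold of 0.05. After the filter 84 members were tested in females, 82 in males and 85 in both. CPM values in the text use TMM factors over all 32 libraries. Library differences by transcript length used log2(CPM + 0.5) and GENCODE vM21 transcripts, which gave lengths for 96.3% of genes tested in females and 96.1% in males. Totals of 2906411 to 10166959 counts put 3 counts at 0.250 to 1.15 CPM.

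Members and gene lists were chosen with earlier results of these data known. Named genes were the complex II subunits, Ndufa4, Ndufa4l2 and the paired forms of complex IV, the largest called rise and fall per diet effect in complexes I, III, IV and V at a mean of at least 1 CPM, and the called members, or the member with the smallest p, of the other comparisons. Of other lists at most 3 called genes were named. Other genes were named after their values were seen. Alternatives were RLE and library size scaling, DESeq2 1.42.0, other filters, a replicate block, fits to only the groups compared, leaving out each library or both libraries absent from the heat maps, and, added after seeing the data, the length and GC offset and joint settings without replicate 3. The test was also run on counts simulated from the spread that edgeR fitted. Those counts held no library differences by transcript length, so they cannot show how the test behaves with such libraries.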

Additional observations from a re-analysis of the deposited data

Results flagged for a closer look

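Each group of 4 libraries was searched for a highest or lowest library whose gap to the nearest of the others took a larger share of the group's range than Dixon's critical value for 4 values allows. Of 192 group values examined for the summed complexes and the named members, 18 passed, where chance gives about 1 in 20.

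The CDAHFD-fed Cyp2b-null female replicate 3 accounted for 9 of them, each time as the highest library of its group. Its summed levels were 4450 CPM for complex I (others 2657 to 2765), 1938 CPM for complex III (1179 to 1236), 3371 CPM for complex IV (1938 to 1985), 4607 CPM for complex V (3289 to 3370) and 15688 CPM for all members (10282 to 10398). Among single members it stood out for Ndufb11 at 173 CPM, Uqcr11 at 159.6 CPM, Cox6a1 at 729 CPM and Cox7a1 at 3.39 CPM. The summed level of complex II did not stand out in this library.

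The other 9 lay in 7 libraries. CDAHFD-fed Cyp2b-null male replicate 3 was lowest of its group for complex II (849.7 CPM, others 929.9 to 933) and complex V (2655 CPM, others 2984 to 3049). ND-fed Cyp2b-null male replicate 1 was lowest for Uqcr11 (57.8 CPM) and Cox6a1 (256 CPM, others 415 to 430.1). CDAHFD-fed Cyp2b-null males held the highest Sdha in replicate 4 (562 CPM) and the highest Atp5l in replicate 2 (4.998 CPM). In WT females the lowest values were Sdhb in ND-fed replicate 2 (156 CPM, others 249.2 to 268), Atp5s in ND-fed replicate 1 (3.78 CPM) and Atp5k in CDAHFD-fed replicate 3 (94.7 CPM).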

How the results depend on the processing

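The diet counts moved with the scaling and with single libraries. With library size only, 3 members were called in WT females, 17 in Cyp2b-null females, 8 in WT males and 5 in Cyp2b-null males, and without replicate 3 it was 10 in WT females. Without the libraries absent from the heat maps the counts were 44 in WT and 17 in Cyp2b-null females. In Cyp2b-null females the fit to only the groups compared called 5, the length and GC offset 17, and the offset without replicate 3 called 21. Leaving out 1 library at a time gave 11 to 44 calls in WT females, 4 to 17 in Cyp2b-null females, 28 to 54 in WT males and 31 to 51 in Cyp2b-null males, with the libraries behind the low and high female counts named in the report. DESeq2 called 29, 10, 45 and 48. For the difference between sexes in Cyp2b-null mice, no low-count filter gave 11 and leaving out 1 library 0 to 2. The genotype effects, interactions and other sex differences called 0 members under every alternative run. Named members were checked only in diet effects where they passed the test with all libraries. Of those values, 742 kept their direction and side of the threshold under an alternative, 135 no longer passed and 0 reversed. Members that had not passed are outside this count, and among them Ndufa4 and Uqcr11 in Cyp2b-null females changed sign without replicate 3. Apart from these constructions (fewer libraries, another scaling), the cause was not tested.

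With the replicate number as a replicate block 22, 7, 43 and 45 members were called in the diet effects of WT females, Cyp2b-null females, WT males and Cyp2b-null males, and 0 in each other comparison. Deviations of libraries with the same number correlated between -0.193 and 0.316, and the numbers were not treated as pairs. In no pair of groups but CDAHFD-fed WT and ND-fed Cyp2b-null females did every library correlate best with its own number.

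Totals of 2906411 to 10166959 counts limit the members listed at a few counts, and a member that missed the threshold is not shown to be equal between groups.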
